A study of Homo sapiens with 24 samples.

Results

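The response to 25 μM enzalutamide was measured in LNCaP prostate cancer cells in which GATA2 had been silenced (siGATA2 cells). The comparison was defined by the sample labels alone, as 3 libraries of siGATA2 cells given enzalutamide against 3 libraries of siGATA2 cells given vehicle, which are 6 of the 24 samples of the series. LNCaP is an androgen-responsive line derived from a prostate adenocarcinoma. Cells were transfected with a pool of 4 siRNAs against GATA2 or with a non-targeting pool (siControl), held for 3 days in medium with charcoal-stripped serum, which is depleted of steroids, and treated from 72 h after transfection for 24 h. The study asked with these libraries how far transcription induced by enzalutamide needs GATA2. The 6 siControl libraries of the same design (3 with vehicle, 3 with enzalutamide) share no library with the siGATA2 comparison and serve here to show where it differs. The replicates are described as biological in the labels, which do not say whether they came from separate cultures, so p-values measure only the spread between these libraries.

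Androgen signaling drives the growth and the secretory program of luminal prostate cells. Enzalutamide is an antiandrogen that blocks this signaling. GATA2 is a zinc-finger pioneer factor that opens chromatin at many enhancers of androgen-regulated genes, so a cell with less GATA2 starts from a lower level of androgen signaling.

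The 4 siRNAs of the pool decide how the cells were perturbed and are shown here in the sense direction, 5′ to 3′, with positions 12 to 18 in capitals, the bases complementary to the seed of the guide strand. They are the target sequences listed by the study and were matched to annotated human transcripts (GENCODE, GRCh38), in which GATA2 lies on the minus strand of chromosome 3.
siRNA 1: ucgaggagcugUCAAAGUg
siRNA 2: acuacaagcugCACAAUGu
siRNA 3: gaagagccggcACCUGUUg
siRNA 4: gcccaggccuaGCUACUAu
siRNA 1 lies at chr3:128481203-128481221 in exon 6. siRNA 2 spans the junction of exons 5 and 6, with 17 bases at chr3:128481819-128481835 and 2 bases at chr3:128481317-128481318. siRNA 3 lies at chr3:128481916-128481934 in exon 5 and siRNA 4 at chr3:128485891-128485909 in exon 3. All of them match coding sequence of GATA2 and, over their full length, no annotated transcript of another gene. The RNA level of GATA2 counts reads along the whole transcript, so it reports the amount of transcript left and not protein.

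GATA2, the targeted gene, was read first in every library, in RPKM (reads scaled to the length of the gene in kilobases and to the mapped reads of the library, the unit of the deposited values). In siControl cells it was 83.8, 77.0 and 86.1 RPKM with vehicle and 128, 132 and 128 RPKM with enzalutamide. In siGATA2 cells it was 54.3, 53.4 and 46.6 RPKM with vehicle and 60.1, 64.7 and 61.5 RPKM with enzalutamide. All 6 siGATA2 libraries were below all 6 siControl libraries, and the mean in vehicle was 62.5% of that of siControl cells, so silencing was partial at the RNA level. Within siGATA2 cells the drug libraries were above the vehicle libraries, a log2 difference of 0.27 that missed the threshold (standard error 0.0594, adjusted p = 0.0995, limma), and the difference was smaller than the 0.65 of siControl cells (interaction adjusted p = 0.00823).

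The luminal identity of the cells was checked on markers. The 10 luminal genes had a median of 97.1 RPKM in siControl and 23.0 RPKM in siGATA2 cells with vehicle. With enzalutamide 8 of the 10 had a negative sign in siGATA2 cells, 5 were lower and 1 higher at an unadjusted p below 0.05, and 1 fell. Of all 20369 genes tested 11422 had a negative sign, and 1380 (6.78%) were lower and 819 (4.02%) higher at that unadjusted p. Levels varied between markers. HOXB13 stood between 130 and 141 RPKM and KRT8 between 180 and 198 RPKM in the 6 siGATA2 libraries, while KLK3, which encodes prostate-specific antigen, was at 24.1 RPKM in vehicle against 791 RPKM in siControl cells. The 10 luminal genes summed to 794 to 810 RPKM with vehicle and 764 to 774 RPKM with enzalutamide in siGATA2 cells, and to 1550 to 1630 RPKM in siControl cells with vehicle. The 4 basal markers summed to at most 0.14 RPKM, and CD3E and COL1A2 were listed at 0 in every siGATA2 library. Non-luminal sums came almost entirely from COL1A1, ENO2 and VWF, single genes whose partners CHGA, DCN and CD3E were at or near 0. Depth was even, with about 68600000 to 76800000 mapped reads behind each siGATA2 library as read from the steps between small RPKM values, and RPKM values were tested as log2(RPKM + 0.1), a scale on which the fold of genes under about 0.1 RPKM comes out too small.

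Few genes changed with enzalutamide in siGATA2 cells, and the changes were small. Of 20369 genes tested, 45 rose (0.221%) and 39 fell (0.191%) at an adjusted p below 0.05 (limma, n = 3 per group, Benjamini-Hochberg). None of the risers (0.0%) and 1 faller (0.00491%) passed 2-fold. At an unadjusted p below 0.05 the counts were 819 higher (4.02%) and 1380 lower (6.78%), of which 24 (0.118%) and 15 (0.0736%) passed 2-fold. By sign alone 8870 of the 20369 genes were higher and 11422 lower. These counts over all genes are the background for the sign counts and unadjusted counts of sets of genes below. In siControl cells the same test gave 3612 genes that rose (17.7%) and 4970 that fell (24.4%), of which 111 (0.545%) and 298 (1.46%) passed 2-fold. For all 84 genes called in siGATA2 cells the 3 drug libraries did not overlap the 3 vehicle libraries. This largely follows from the call itself, and it was a condition for naming the largest rises and falls, so it adds no separate support. The share of non-overlapping genes among all genes tested was not counted. An exact permutation test of 3 against 3 libraries cannot go below 0.1, so calls rest on the fitted model alone. The number of calls depended on single libraries. It was 27 without enzalutamide replicate 1, 33 without enzalutamide replicate 2 and 32 without enzalutamide replicate 3 of siGATA2 cells. Without vehicle replicates 1, 2 and 3 of siGATA2 cells it was 42, 33 and 77, and only 48 of the 77 were among the 84. It was 56 without siControl vehicle replicate 1. All 84 genes kept their sign each time, which had to follow because their siGATA2 groups did not overlap. The 6 siGATA2 libraries fitted alone gave 26 calls, and a fit with the replicate number as a block gave 29. A pseudocount of 0.01 RPKM gave 4 risers and 9 fallers past 2-fold.

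Errors were narrow. Among the 10797 genes with an average log2 level of at least 1, the median standard error of the log2 difference was 0.0481 and the 95% interval reached 0.107 to either side at the median. That interval lay within 2-fold either way for 99.9% of these genes and within 1.5-fold for 99.3%. The log2 differences had an SD of 0.0854 in siGATA2 cells and of 0.349 in siControl cells. Across these genes the differences in the 2 backgrounds were correlated (Pearson's r = 0.461, Spearman's rho = 0.419, slope 0.113), a description across genes of 12 libraries that share no sample between the axes but share gene length and level.

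**Figure D1:**
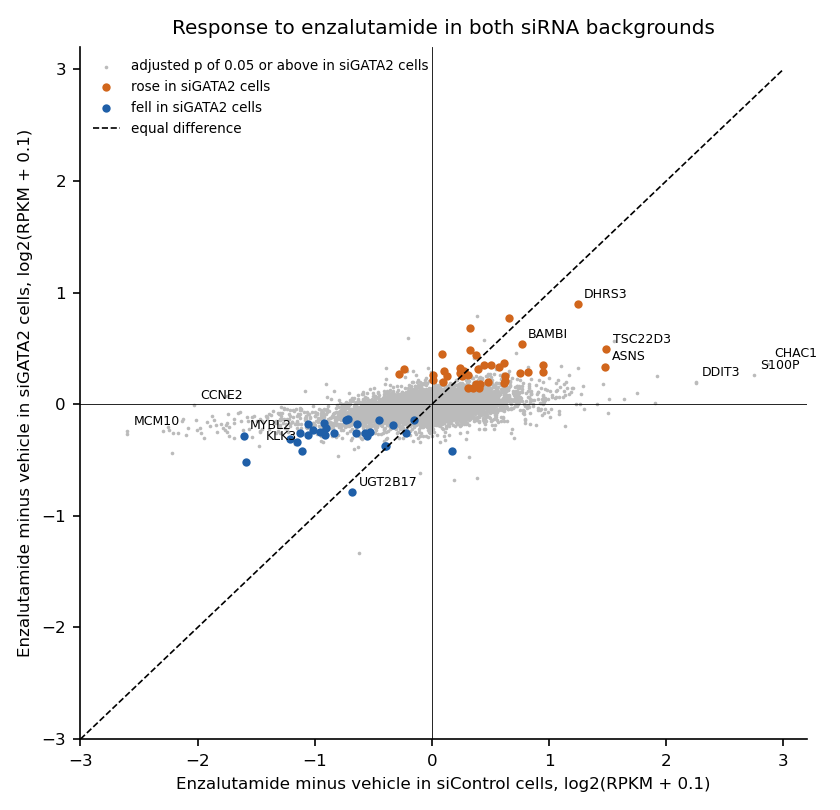
Enzalutamide minus vehicle on the log2(RPKM + 0.1) scale in siControl cells (x axis) and siGATA2 cells (y axis), 1 point per gene with an average log2 level of at least 1 (10797 genes), with risers and fallers of siGATA2 cells in color and a dashed line of equal difference. The cloud is flat, with an SD of 0.0854 on the y axis against 0.349 on the x axis, and UGT2B17 is among the called genes close to the dashed line.

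The genes that moved most in siControl cells show the same contrast. The 111 genes that rose more than 2-fold there had a median log2 difference of 1.41, against 0.11 in siGATA2 cells, where 83 of them had the same sign, 3 rose and 1 fell (MIR8085). For 99 of the 111 the 95% interval in siGATA2 cells excluded a 2-fold rise. The 298 genes that fell more than 2-fold in siControl cells had a median of -1.27 there and of -0.16 in siGATA2 cells. Of these, 275 had the same sign in siGATA2 cells, 11 fell and 288 had an interval that excluded a 2-fold fall. Because these genes were chosen on their siControl values, their medians there are larger than an independent measurement would give. The test of the difference itself called 5264 genes, 3055 with a higher (15.0%) and 2209 with a lower (10.8%) log2 response in siGATA2 than in siControl cells. In 5119 of them the response was smaller in absolute size in siGATA2 cells, and in 145 it was larger. These 2 counts disregard sign, so genes with opposite signs are included.

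DHRS3, which encodes a retinaldehyde reductase of retinoid metabolism, had the largest rise among genes that passed the test at an average log2 level of at least 1. It was at 18.4, 18.7 and 15.6 RPKM with vehicle and at 31.8, 34.1 and 32.1 RPKM with enzalutamide. The drug libraries were all far above the vehicle libraries, a log2 difference of 0.89 (standard error 0.0708, adjusted p = 0.000635). In siControl cells it went from 9.30 to 22.1 RPKM, a difference of 1.24, so the response was somewhat smaller after silencing (interaction adjusted p = 0.0271) although the vehicle level was higher.

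BAMBI, a decoy receptor that dampens TGF-β signaling, had the smallest adjusted p of all risers. Its level was 34.8, 32.9 and 32.9 RPKM with vehicle and 47.1, 50.1 and 48.9 RPKM with enzalutamide. The groups were well apart and the spread within each was small (log2 difference 0.54, standard error 0.0287, adjusted p = 3.44e-05), against 0.77 in siControl cells (interaction adjusted p = 0.00239). Another named riser, TSC22D3, encodes the glucocorticoid-induced leucine zipper, a glucocorticoid target. It was at 21.5, 22.7 and 20.6 RPKM with vehicle and at 29.6, 31.8 and 30.0 RPKM with enzalutamide, again without overlap. The log2 difference was 0.50 (standard error 0.0408, adjusted p = 0.000769), against 1.49 in siControl cells (interaction adjusted p = 2.29e-06).

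NRIP1, a corepressor that binds ligand-bound nuclear receptors, rose in both backgrounds. It was at 9.84, 9.59 and 10.5 RPKM with vehicle and at 14.2, 13.6 and 14.1 RPKM with enzalutamide. All drug libraries exceeded all vehicle libraries, with a log2 difference of 0.48 (standard error 0.0487, adjusted p = 0.00285) against 0.33 in siControl cells, and no difference between backgrounds was called (0.15, 95% interval 0.00 to 0.31, adjusted p = 0.135). LCN2, which encodes the iron-binding secreted protein lipocalin 2, went from 59.2, 56.5 and 58.6 RPKM to 74.4, 75.3 and 72.6 RPKM. The rise of 0.35 (adjusted p = 0.00622) was smaller than the 0.95 of siControl cells (interaction adjusted p = 6.2e-05), where the vehicle level was only 18.5 RPKM. PIGR, the receptor that carries antibodies across epithelia, rose by 0.37 from a mean of 1.68 RPKM (adjusted p = 0.048).

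PYGL, the liver form of glycogen phosphorylase, was at 2.00, 2.43 and 1.99 RPKM with vehicle and at 3.01, 2.95 and 2.92 RPKM with enzalutamide. The groups did not overlap (log2 difference 0.45, adjusted p = 0.0378), and in siControl cells, where its level was far higher, it went only from 15.3 to 16.3 RPKM, a difference of 0.09 (adjusted p = 0.411). The response was larger in siGATA2 cells (interaction adjusted p = 0.0282). C5orf66, a long non-coding transcript, likewise rose more after silencing, from 2.60, 2.54 and 2.93 RPKM to 4.36, 4.41 and 4.30 RPKM. Its difference was 0.68 (adjusted p = 0.00161) against 0.32 (interaction adjusted p = 0.0128). COLCA1 rose by 0.78 (adjusted p = 0.00278) from levels of only 0.357 to 0.462 RPKM, a range where the size depends on the added 0.1 RPKM, and LOC101927809 rose by 0.44 (adjusted p = 0.0447).

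UGT2B17 had the smallest adjusted p of all genes and had the largest fall among genes that passed the test at an average log2 level of at least 1. It encodes the enzyme that conjugates testosterone and dihydrotestosterone with glucuronic acid, is known to be repressed by androgen, and inactivates androgens in prostate cells. It was at 11.9, 11.6 and 12.2 RPKM with vehicle and at 6.80, 6.97 and 6.69 RPKM with enzalutamide. The groups were far apart, a log2 difference of -0.79 (standard error 0.0336, adjusted p = 7.13e-06). In siControl cells it went from 29.2 to 18.2 RPKM, a difference of -0.68, and no difference between backgrounds was called (interaction -0.11, adjusted p = 0.119). Its near-identical neighbor UGT2B15 went from 14.5 to 11.8 RPKM (-0.30, adjusted p = 0.1), and reads could have been split between the pair.

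GAL and FZD5 were 2 more fallers for which no difference between backgrounds was called. GAL, which encodes the neuropeptide galanin, went from 14.0, 12.7 and 12.4 RPKM to 9.81, 10.3 and 10.0 RPKM. The groups were apart by a log2 difference of -0.37 (adjusted p = 0.00473) against -0.39 in siControl cells (interaction 0.02, adjusted p = 0.835). FZD5, a receptor for Wnt ligands, went from 4.32, 4.42 and 4.67 RPKM to 3.40, 3.59 and 3.27 RPKM, a difference of -0.38 (adjusted p = 0.0111) against -0.40 (interaction 0.02, adjusted p = 0.845).

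Other named fallers had a smaller change than in siControl cells. C1orf116, an androgen-induced gene of epithelia, went from 7.25, 7.00 and 7.51 RPKM to 5.33, 5.67 and 5.22 RPKM (-0.42, adjusted p = 0.0037, against -1.11 in siControl cells).

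MYBL2, a transcription factor of the cell cycle, went from 19.5, 20.1 and 19.9 RPKM to 16.2, 16.1 and 16.6 RPKM in siGATA2 cells. The narrow spread put the groups clearly apart (-0.28, standard error 0.0281, adjusted p = 0.00285), although the difference in siControl cells was -1.60 (interaction adjusted p = 1.09e-07). DSEL, which encodes a relative of the dermatan sulfate epimerase, fell by 0.52 on the log2 scale (adjusted p = 0.00773, against -1.59 in siControl cells). SOX4, a transcription factor gene, had a difference of -0.29 (adjusted p = 0.0179, against -0.55). HIST1H2BN, a replication-dependent histone gene, differed in sign between the backgrounds, at -0.42 in siGATA2 cells (adjusted p = 0.0376) and 0.17 in siControl cells (adjusted p = 0.0697), with a difference between the backgrounds of -0.59 (adjusted p = 0.00163).

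**Figure D2:**
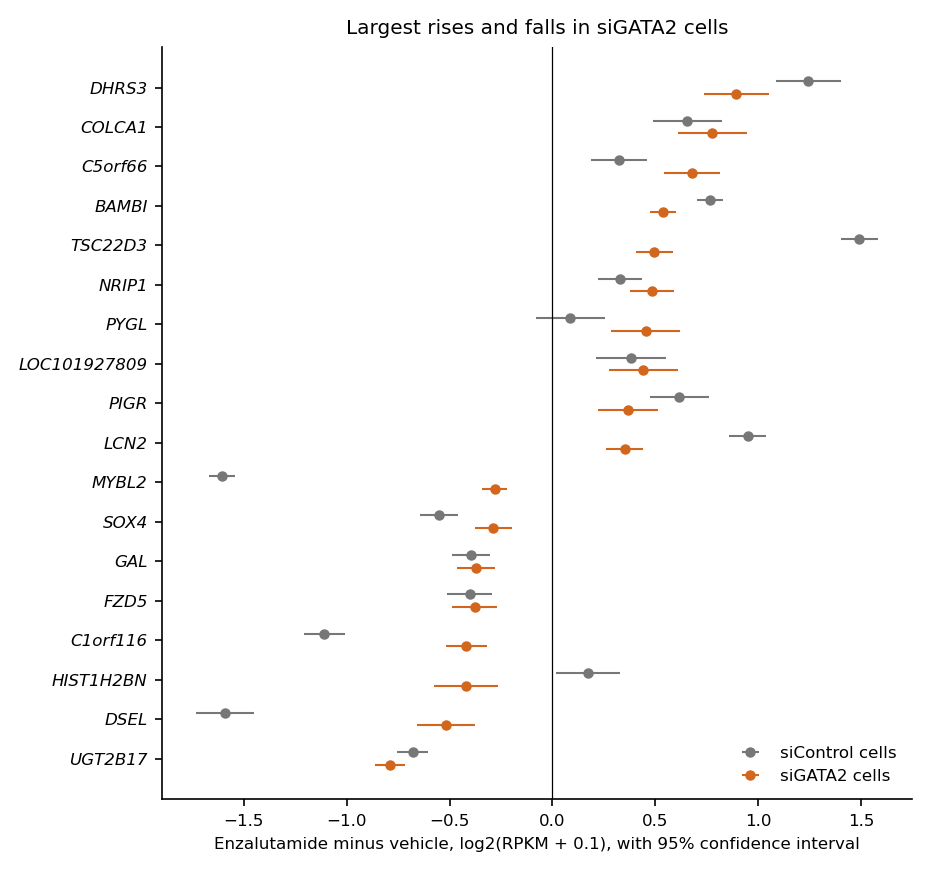
Log2 difference, enzalutamide minus vehicle, with its 95% confidence interval for genes among the 10 largest rises and 10 largest falls in siGATA2 cells (orange) and for the same genes in siControl cells (gray). UGT2B17, GAL and FZD5 have nearly the same difference in both backgrounds, while TSC22D3, DSEL and MYBL2 are far from it.

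Over all 84 called genes the comparison with siControl cells split as follows. A difference between backgrounds was called for 57 of them. For 43 the response had the same sign and was smaller in siGATA2 cells, for 6 it had the same sign and was larger, and for 8 the signs were opposite. For the other 27 no difference was called, which does not show that the responses were equal. Of the 84 genes, 74 (88.1%) were also called in siControl cells, where 8582 of all 20369 genes tested were called. The 74 are 0.862% of those 8582 calls, and 70 of the 74 had the same direction. Both tests used 1 estimate of the spread per gene, so a gene with a small spread was favored in both. These groups were formed on the values tested and their genes are given as a description.

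Among the 27 without a called difference were several further regulators, named here after their values were seen. NCOA3, a nuclear receptor coactivator of the p160 family, was at 10.2, 9.89 and 10.9 RPKM with vehicle and at 12.6, 12.3 and 12.3 RPKM with enzalutamide, above vehicle in every library (log2 difference 0.26, adjusted p = 0.0383, against 0.31 in siControl cells). MAOA, which encodes monoamine oxidase A, fell from 45.8, 44.2 and 46.5 RPKM to 37.0, 38.4 and 38.6 RPKM (-0.26, adjusted p = 0.0076, against -0.23). ACPP, the gene of prostatic acid phosphatase, rose from 6.77, 6.86 and 7.53 RPKM to 9.08, 8.46 and 8.80 RPKM (0.31, adjusted p = 0.0164, against 0.39). In each case the libraries of the groups did not overlap. Metallothionein gene MT2A (0.32, adjusted p = 0.0363), the protein kinase C gene PRKCD (0.28, adjusted p = 0.0137), and TNFSF15, a TNF family cytokine gene (0.29, adjusted p = 0.0037), also rose.

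The genes with a larger or opposite response after silencing were likewise named after their values were seen. MME, which encodes the membrane protease neprilysin, was at 24.2, 24.2 and 23.1 RPKM with vehicle and at 27.6, 27.3 and 28.4 RPKM with enzalutamide. It rose by 0.22 (adjusted p = 0.011) but stood at 159 and 160.0 RPKM in siControl cells, a difference of 0.01 (interaction adjusted p = 0.00314). ATP1B1, the beta subunit of the sodium pump, rose by 0.27 (adjusted p = 0.0076) against 0.01 in siControl cells (interaction adjusted p = 0.00226).

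TCIM, a small regulator of Wnt signaling, fell from 2.26, 2.36 and 2.37 RPKM to 1.83, 1.76 and 1.76 RPKM (-0.37, adjusted p = 0.0171) and rose in siControl cells (0.24, adjusted p = 0.00377). LCLAT1, a lysophospholipid acyltransferase gene, and SLC4A4, a sodium bicarbonate cotransporter gene, rose in siGATA2 cells (0.27, adjusted p = 0.0121, and 0.32, adjusted p = 0.0251) and fell in siControl cells (-0.28 and -0.24). For these 3 genes the difference between backgrounds passed the test (adjusted p = 0.000262, 3.86e-05 and 0.00027). MIR8085, the gene behind the 1 call past 2-fold, was at 0.224, 0.224 and 0.211 RPKM with vehicle, the smallest step that each of these libraries can show for it, and was listed at 0 in the 3 drug libraries.

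The plot of 12 genes by library shows these patterns on a linear scale.

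**Figure D3:**
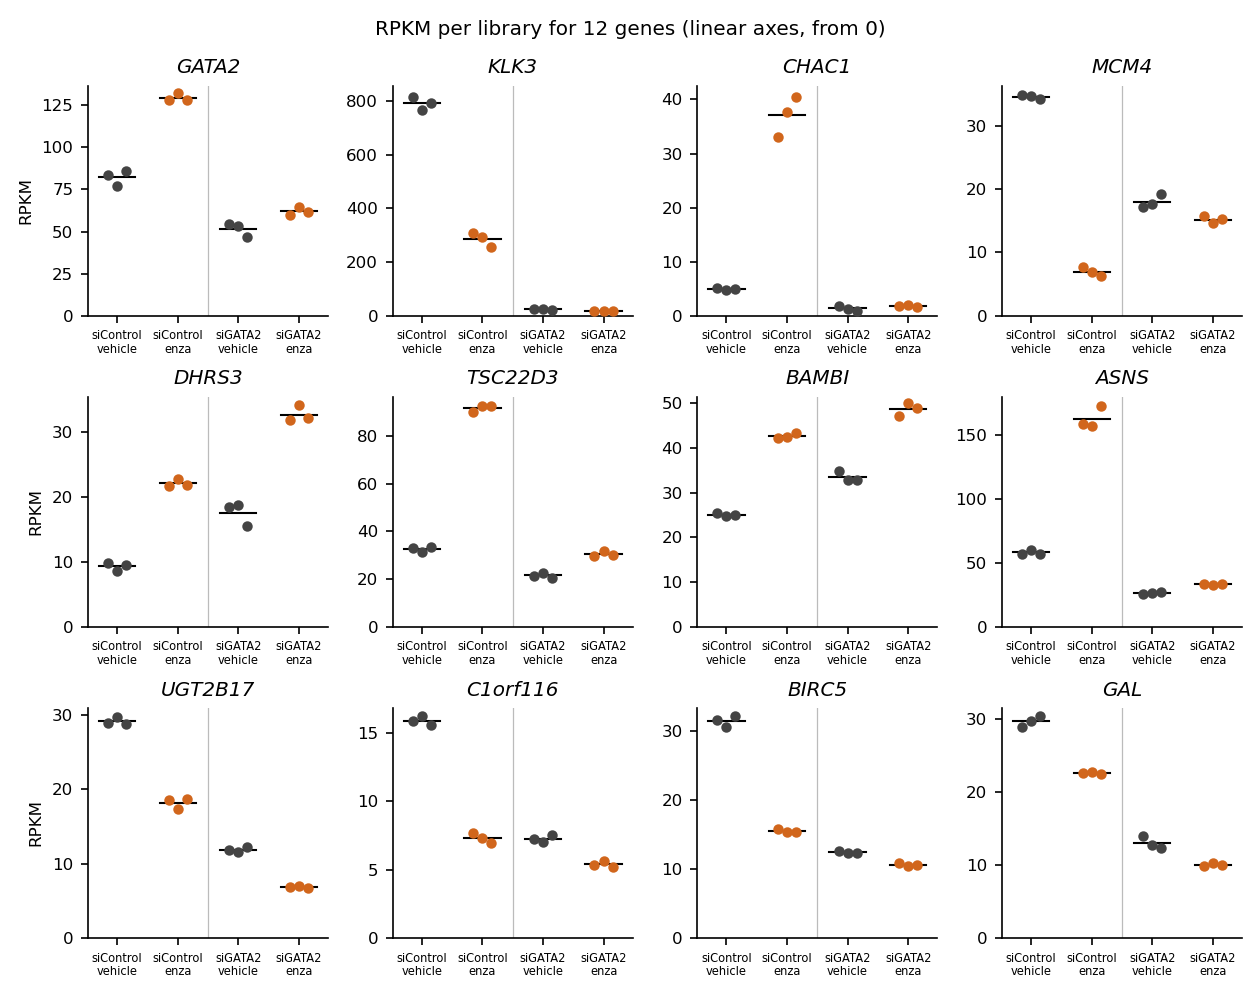
RPKM of 12 genes in each of the 12 libraries (linear axes from 0), with vehicle in dark gray, enzalutamide in orange and a bar at each group mean of 3 libraries. In siGATA2 cells DHRS3, BAMBI, TSC22D3 and ASNS are higher and UGT2B17, C1orf116, BIRC5 and GAL lower with enzalutamide, while CHAC1 stays between 0.998 and 1.98 RPKM against at least 33.1 RPKM in siControl cells with enzalutamide.

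Androgen response genes were next taken as a list. Of 27 androgen-induced genes, 2 fell, C1orf116 among them, and none rose in siGATA2 cells, with a median log2 difference of -0.02, against -0.01 for all genes tested. At an unadjusted p below 0.05, 5 were lower and 3 higher. In siControl cells 21 of the 27 fell and 2 rose, with a median of -0.45. The difference between backgrounds was called for 19, all with a higher log2 response in siGATA2 than in siControl cells. By sign, 17 of the 27 were negative and 10 positive in siGATA2 cells. The median vehicle level of the 27 genes was 12.7 RPKM in siControl and 8.25 RPKM in siGATA2 cells.

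KLK3 was at 26.3, 24.2 and 21.7 RPKM with vehicle and at 17.6, 19.0 and 18.8 RPKM with enzalutamide in siGATA2 cells. The drug libraries were all lower, but the difference of -0.38 missed the threshold (adjusted p = 0.079). In siControl cells the means were 791 and 286 RPKM, a difference of -1.47 (interaction adjusted p = 7.06e-05). TMPRSS2, an androgen-induced protease gene, had overlapping groups at 20.3 to 22.9 RPKM and 21.2 to 21.9 RPKM and a difference of -0.01 (95% interval -0.12 to 0.09), against -0.44 in siControl cells. Of 7 genes known to be repressed by androgen, UGT2B17 fell and none rose in siGATA2 cells. At an unadjusted p below 0.05, 4 were lower and 2 higher, and the median log2 difference was -0.13. In siControl cells 5 of the 7 fell and 2 rose, with a median of -0.43. Among 18 tested lineage and steroid receptor factors 1 fell and none rose in siGATA2 cells. FOXA1, a pioneer factor of luminal cells, was at 142 and 144 RPKM there.

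Genes that the study followed as enzalutamide-induced, apart from TSC22D3 described above, did not pass the test in siGATA2 cells. SLC7A11, the cystine importer, was at 6.65, 6.49 and 7.12 RPKM with vehicle and at 8.74, 8.24 and 8.50 RPKM with enzalutamide. The groups did not overlap, yet the difference of 0.33 missed the threshold (adjusted p = 0.0775), and it was below the 1.24 of siControl cells (interaction adjusted p = 8.47e-05). NR3C1, the glucocorticoid receptor gene, was at 0.00826 to 0.0202 RPKM in the 6 siGATA2 libraries, too low for a small drug effect to be read. In siControl cells its mean went from 0.00684 to 0.0287 RPKM, also near 0, a rise that passed the test (0.27, adjusted p = 0.00166). LAMP3 was at no more than 0.0195 RPKM in siGATA2 cells against a mean of 0.383 RPKM in siControl cells with enzalutamide.

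VEGFA, the endothelial growth factor, was at 44.8, 40.8 and 30.2 RPKM with vehicle and at 30.9, 34.9 and 34.2 RPKM with enzalutamide. Its groups overlapped (-0.19, adjusted p = 0.672), whereas it rose from 20.7 to 45.6 RPKM in siControl cells (1.13, interaction adjusted p = 0.000723). CPEB4, an RNA-binding translation regulator, was level at 14.5 to 14.9 RPKM in all 6 siGATA2 libraries. Of the 16 genes the study names, a list chosen by the study on these and other samples, TSC22D3 rose and BIRC5 fell.

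In the integrated stress response, kinases that sense amino acid shortage, ER stress or other insults raise translation of the factor ATF4, which then induces amino acid enzymes and transporters, tRNA synthetases and its own feedback regulators. None of the 22 regulators on the list rose or fell in siGATA2 cells (limma). At an unadjusted p below 0.05, 5 were higher and none lower, and the median log2 difference was 0.06. In siControl cells 20 of the 22 rose, with a median of 1.19. The difference between backgrounds was called for 19, all with a lower log2 response in siGATA2 than in siControl cells. By sign, 15 of the 22 were positive and 7 negative in siGATA2 cells. Their vehicle levels had a median over members of 15.0 RPKM in siControl and 15.4 RPKM in siGATA2 cells, but single members differed in both directions, from 26.9% (FGF21) to 223% (ATF3) of the siControl mean, and CHAC1 stood at 28.5%.

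CHAC1, which degrades glutathione, had the most negative difference between the backgrounds among all genes with an average log2 level of at least 1. It was at 1.87, 1.37 and 0.998 RPKM with vehicle and at 1.78, 1.98 and 1.64 RPKM with enzalutamide in siGATA2 cells. The groups overlapped (0.36, 95% interval -0.02 to 0.75, adjusted p = 0.487), while in siControl cells CHAC1 rose from 4.97 to 37.1 RPKM (2.87, interaction -2.51, adjusted p = 6.16e-05). DDIT3, which encodes the stress factor CHOP, was at 29.4, 28.8 and 26.1 RPKM with vehicle and at 31.1, 32.8 and 32.5 RPKM with enzalutamide (0.19, adjusted p = 0.408), against 18.5 and 89.2 RPKM in siControl cells. TRIB3, a pseudokinase that feeds back on ATF4, had overlapping groups and a difference of 0.01 against 1.91. ATF4 itself averaged 91.7 and 101 RPKM (0.15, adjusted p = 0.137). FAM129A, a gene induced by ER stress, and S100P, which encodes a calcium-binding protein, also among the 5 most negative differences between backgrounds, showed 0.19 and 0.26 in siGATA2 cells against 2.25 and 2.75.

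One enzyme downstream of ATF4 did rise. ASNS, asparagine synthetase, was at 25.6, 26.2 and 27.0 RPKM with vehicle and at 33.6, 32.7 and 33.2 RPKM with enzalutamide. The groups were apart by a log2 difference of 0.34 (standard error 0.0361, adjusted p = 0.0037), against a rise from 58.1 to 162 RPKM in siControl cells (1.48, interaction adjusted p = 8.74e-07). It was the 1 riser among 16 amino acid and one-carbon enzymes, of which 14 had a positive sign and 5 were higher at an unadjusted p below 0.05, with a median of 0.06. In siControl cells 14 of the 16 rose and 2 fell. PCK2 (0.18, adjusted p = 0.0828) and PSAT1 (0.12, adjusted p = 0.257), a mitochondrial carboxykinase and a serine synthesis enzyme, missed the threshold. None of 12 amino acid transporters and none of 20 cytosolic tRNA synthetases rose or fell (limma). At an unadjusted p below 0.05, 3 transporters were higher and none lower, and 6 synthetases were higher and 1 lower. The synthetase with the smallest p was YARS (0.12, adjusted p = 0.0524). The siControl test called 8 of the 12 transporters higher and 2 lower, and 12 of the 20 synthetases higher and 7 lower. Median vehicle levels of transporters were 33.0 RPKM in siControl and 15.1 RPKM in siGATA2 cells. They were 52.5 and 28.1 RPKM for the amino acid enzymes and 69.0 and 58.2 RPKM for the synthetases.

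Promoters of these genes were read from RefSeq (GRCh38.p14), as 300 bases around the start site, for the letters TGATGNAA on either strand, the core of the C/EBP-ATF element bound by ATF4. They occurred in 3.67% of all 27305 promoters, in 20.0% of 20 stress response regulators, in 27.3% of 11 amino acid enzymes and in 37.5% of 16 tRNA synthetases with a promoter in the table. Shown are 80 bases of the promoters of ASNS, which rose, and of CHAC1, which had the most negative difference between backgrounds, in the direction of the gene and with the match in capitals. In CHAC1 the match is on the opposite strand.
ASNS: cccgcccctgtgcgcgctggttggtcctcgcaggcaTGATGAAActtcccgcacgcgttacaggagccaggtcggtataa
CHAC1: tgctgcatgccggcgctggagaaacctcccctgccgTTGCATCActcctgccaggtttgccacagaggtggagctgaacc
The ASNS window is chr7:97872433-97872512 (minus strand) and the CHAC1 window is chr15:40953226-40953305 (plus strand). Both promoters hold the letters, and the 2 genes had log2 differences of 0.34 and 0.36 in siGATA2 cells, of which only that of ASNS passed the test.

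Targets of NRF2, the transcription factor of the antioxidant response, and chaperones moved little. Of 24 NRF2 targets, NQO1, which encodes a quinone reductase, rose. It was at 245, 242 and 247 RPKM with vehicle and at 270.0, 271 and 272 RPKM with enzalutamide. The narrow groups did not overlap, and the difference of 0.15 (adjusted p = 0.0494) was below the 0.40 of siControl cells (interaction adjusted p = 0.000858). HMOX1, heme oxygenase, averaged 15.1 and 15.6 RPKM in siGATA2 cells against a log2 difference of 1.64 in siControl cells. None of 21 ER chaperones and unfolded protein sensors and none of 13 heat shock chaperones rose or fell (limma). At an unadjusted p below 0.05, 5 and 0 were higher and 2 and 1 lower.

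Genes of cell division had the most uniform residual response. The list of 31 DNA replication and G1/S genes had 30 members with a negative sign and a median log2 difference of -0.18, though none rose or fell at the adjusted threshold (limma, with 18 lower and 0 higher at an unadjusted p below 0.05). All 30 mitosis genes had a negative sign, with a median of -0.16, and 5 fell, with 23 lower and 0 higher at an unadjusted p below 0.05. In siControl cells all 31 and all 30 fell, with medians of -1.62 and -0.73. The difference between backgrounds was called for 30 replication and 28 mitosis genes, all with a higher log2 response in siGATA2 than in siControl cells. The median level of the replication genes went from 15.6 to 4.60 RPKM in siControl cells and from 8.61 to 7.60 RPKM in siGATA2 cells. In bulk RNA, fewer cycling cells and less RNA per cycling cell cannot be told apart. These genes are coexpressed, so their shared sign is not so many independent observations.

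Of the mitosis genes, BIRC5, which encodes the inhibitor of apoptosis and spindle protein survivin, had the smallest p. It was at 12.6, 12.3 and 12.3 RPKM with vehicle and at 10.8, 10.4 and 10.5 RPKM with enzalutamide. The groups were apart with little spread (log2 difference -0.23, standard error 0.0251, adjusted p = 0.0037), against -1.02 in siControl cells (interaction adjusted p = 9.02e-07). PLK1, a kinase of mitotic entry, went from 17.4, 17.2 and 18.5 RPKM to 14.5, 14.7 and 15.0 RPKM (-0.26, adjusted p = 0.0124, against -0.57). AURKB, a kinase of the chromosomal passenger complex, went from 8.64, 8.06 and 8.68 RPKM to 6.92, 6.89 and 7.03 RPKM (-0.28, adjusted p = 0.0247, against -1.06). The spindle genes NUSAP1 and TPX2 fell by 0.17 (adjusted p = 0.0383) and by 0.13 (adjusted p = 0.048). CDK1, the mitotic cyclin-dependent kinase, went from 124, 123 and 125 RPKM to 114, 108 and 112 RPKM, without overlap and without passing the test (-0.15, adjusted p = 0.133). Further fallers with roles in mitosis, found after the values were seen, were FAM83D (-0.28, adjusted p = 0.00385), OIP5 (-0.26, adjusted p = 0.0124), CEP55 (-0.25, adjusted p = 0.0124), KIF2C (-0.18, adjusted p = 0.0183) and PRC1 (-0.14, adjusted p = 0.0447).

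Of the 5 most positive differences between backgrounds at an average log2 level of at least 1, 4 were in genes of DNA replication, its repair or the G1/S transition. MCM4, a subunit of the replicative helicase, was at 17.1, 17.7 and 19.2 RPKM with vehicle and at 15.7, 14.6 and 15.2 RPKM with enzalutamide in siGATA2 cells. Its groups did not overlap (-0.24, adjusted p = 0.186), whereas it fell from 34.5 to 6.96 RPKM in siControl cells (-2.30, interaction 2.05, adjusted p = 8.74e-07). MCM10, another replication initiation factor, and the nuclease gene EXO1 showed -0.24 and -0.20 in siGATA2 cells against -2.60 and -2.25. CCNE2, which encodes a G1/S cyclin, had overlapping groups and a difference of -0.01 (95% interval -0.26 to 0.25) against -2.03. FAM111B, a protease gene, showed -0.27 with overlapping groups against -2.61.

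**Figure D4:**
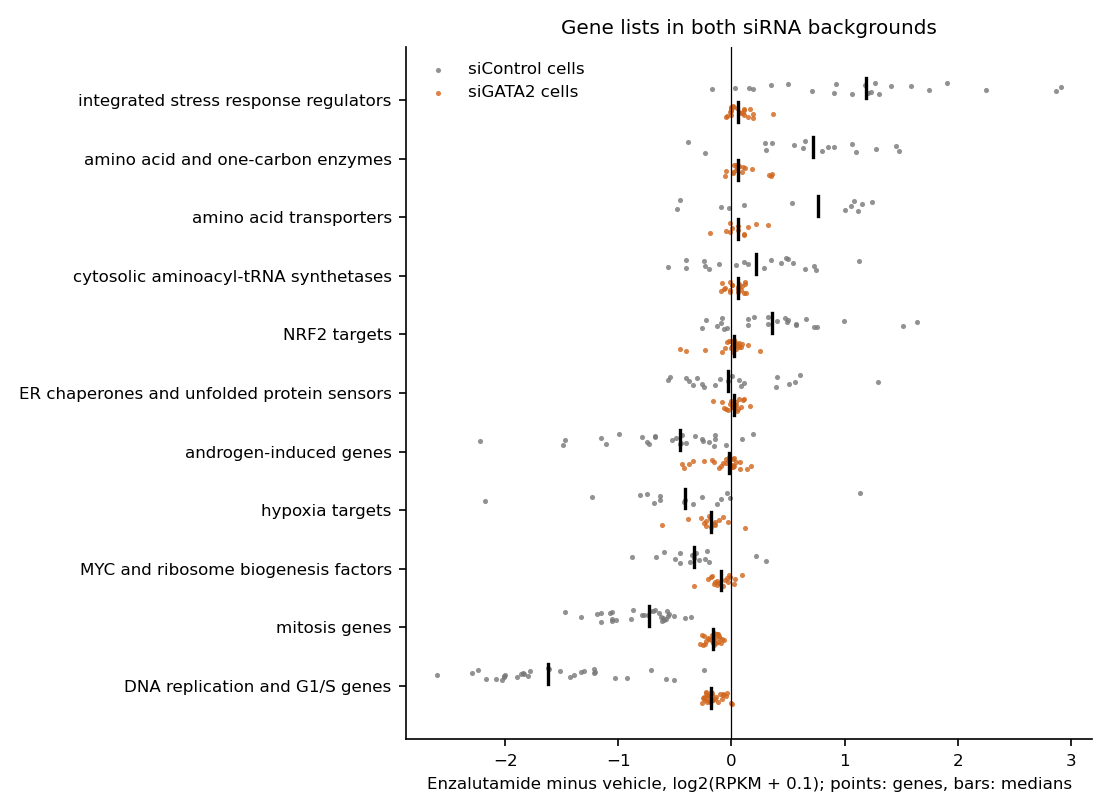
Log2 difference, enzalutamide minus vehicle, for each gene of 11 lists in siControl cells (gray points) and siGATA2 cells (orange points), with a black bar at each median. The medians of the stress response regulators are 1.19 and 0.06 and those of the replication genes -1.62 and -0.18, and all siGATA2 points lie between -0.62 and 0.36.

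The letters TTTGAA, the core of the cell cycle homology region found in promoters of mitotic genes, were counted in the same way on either strand. They occurred in 15.4% of all promoters, in 66.7% of 24 mitosis genes, in 4.0% of 25 replication genes and in 32.1% of the 28 genes that fell in siGATA2 cells and had a promoter in the table. Shown are 80 bases of the promoters of PLK1, which fell in siGATA2 cells, and of CDK1, which fell in siControl cells alone by this test, with the match in capitals.
PLK1: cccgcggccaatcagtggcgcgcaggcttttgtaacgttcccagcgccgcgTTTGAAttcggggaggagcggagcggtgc
CDK1: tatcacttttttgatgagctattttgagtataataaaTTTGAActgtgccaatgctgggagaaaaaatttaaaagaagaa
The PLK1 window is chr16:23678809-23678888 (plus strand) and the CDK1 window is chr10:60778133-60778212 (plus strand). The GATA letters AGATAA occurred in 7.5% of 40 promoters of risers and 3.57% of 28 promoters of fallers, against 10.5% of all promoters. The letters AGAACA, an androgen response half-site, occurred in 12.5% and 10.7%, against 14.9%. A match is a description of letters in these windows and not a bound site.

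Hypoxia targets, genes induced by HIF when oxygen is short, showed a negative sign for 15 of 16 members and a median of -0.18, but none rose or fell (limma, with 6 lower and 0 higher at an unadjusted p below 0.05). The siControl comparison had 15 of the 16 with a negative sign, 11 that fell and 1 that rose, with a median of -0.41. A difference between backgrounds was called for 5 members with a higher and 1 with a lower log2 response in siGATA2 cells. The size of the siGATA2 median depended on vehicle replicate 3. Relative to the vehicle mean, the median of the list was 0.10 and 0.11 in vehicle replicates 1 and 2 but -0.21 in vehicle replicate 3, within the range of the drug libraries (-0.24, -0.12 and -0.17). Without vehicle replicate 3 the median was -0.28 and LDHA, EGLN3, PGK1, BNIP3 and HK2, genes of glycolysis, oxygen sensing and mitophagy, passed the threshold. The same library was highest for interferon response genes (0.13, against -0.02 and -0.10 in the other vehicle libraries), of which none rose or fell (2 higher and 0 lower of 20 at an unadjusted p below 0.05). For replication and mitosis genes it was the highest vehicle library (0.07 and 0.06), and all 3 drug libraries were below all 3 vehicle libraries in both lists.

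**Figure D5:**
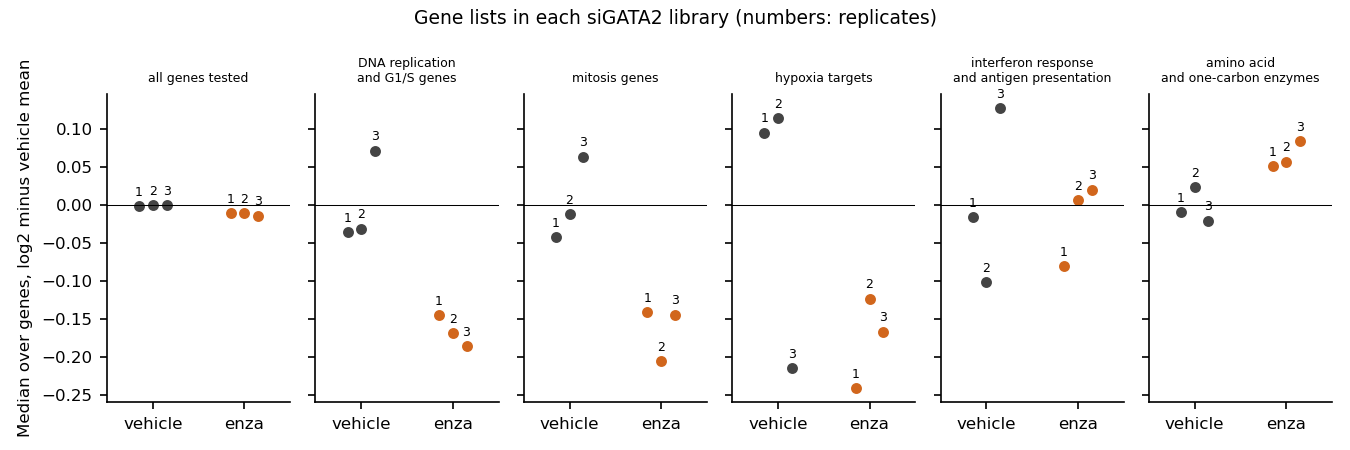
Median log2 value of each list relative to its siGATA2 vehicle mean, 1 point per library with its replicate number, for vehicle (dark gray) and enzalutamide (orange). Vehicle replicate 3 lies with the drug libraries for hypoxia targets (-0.21) and above all others for interferon genes (0.13), while the drug libraries lie below vehicle for replication and mitosis genes.

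In the remaining lists no member rose or fell in siGATA2 cells at the adjusted threshold (limma). They were 18 MYC and ribosome biogenesis factors (median -0.09, with 7 lower and 0 higher at an unadjusted p below 0.05, and vehicle replicate 3 at 0.10 against -0.06 and -0.03 in the other vehicle libraries and -0.07, -0.11 and -0.07 in the drug libraries), 22 cholesterol genes (2 higher, 3 lower), 13 fatty acid synthesis genes (3 higher, 1 lower), 13 apoptosis regulators (1 higher, 1 lower), 10 CDK inhibitors and D-type cyclins (0 higher, 2 lower), 11 immediate early genes (0 higher, 2 lower) and 15 autophagy and lysosome genes (1 higher, 0 lower). CDKN1A, the p21 cell cycle inhibitor, averaged 122 and 127 RPKM in siGATA2 cells (0.05, adjusted p = 0.876) against a log2 difference of 0.97 in siControl cells. Among markers of other cells, VWF went from 1.23, 1.24 and 1.25 RPKM to 0.837, 0.831 and 0.766 RPKM (-0.56, adjusted p = 0.0427). Of the other 5 blood and endothelial markers none exceeded 0.0323 RPKM in a siGATA2 library.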

How the data were processed

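RNA was measured by poly(A) sequencing with a directional library kit on an Illumina HiSeq instrument, in 12 libraries of transfected LNCaP cells. The authors deposited gene values as RPKM. The submitters' processing notes name TopHat2 2.0, Partek and the human build hg19, and the strand setting of the counting is not given in the sources used here. No counts of these libraries were used, and mapped reads were estimated from the steps between low RPKM values (about 58800000 to 76800000 per library). Genes above 0 in at least 3 of the 12 libraries were kept (20369 of 23028). Values were tested as log2(RPKM + 0.1) with limma 3.58.1 (R 4.3.3) with a variance trend, in 1 fit of all 12 libraries with 4 group means. Contrasts were enzalutamide minus vehicle in siGATA2 cells, the same in siControl cells, and their difference (interaction). P-values were 2-sided and adjusted by Benjamini-Hochberg over all genes tested, with 0.05 as the threshold. Scripts were tested on simulated data. Tables and figures were made with Python 3.11.15, pandas 2.3.3 and matplotlib 3.10.9.

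Genes were named if the study names them, if they were among the 10 largest rises or falls in siGATA2 cells past the threshold (average log2 level 1 or more, drug and vehicle libraries not overlapping), among the 5 most positive or negative interactions at that level, or among the 4 members of a list with the smallest p past the threshold. The comparison and the gene lists were chosen with earlier results of these data known, and lists are described by counts and medians alone. Alternatives were pseudocounts of 1 and 0.01 RPKM, no filter, a mean of at least 1 RPKM, centred libraries, no variance trend, a replicate block, the 6 siGATA2 libraries alone and leaving out each library. The 12 libraries of untransfected cells (vehicle, DHT, or enzalutamide at 10 μM) belong to another experiment and were not used here. Some genes that met the naming rule are not reported here.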

Additional observations from a re-analysis of the deposited data

Results flagged for a closer look

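Of the 48 named genes reported here, 38 had a drug response that differed between siGATA2 and siControl cells by the test of the difference itself (limma interaction, adjusted p from 1.09e-07 to 0.0282). The values below are the log2 difference (enzalutamide minus vehicle) in siGATA2 cells minus that in siControl cells, so a negative value is a weaker rise and a positive value a weaker fall wherever the response had the same sign and was smaller after silencing, which held for 32 of the 38 genes.

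Among genes with a weaker rise, the value was -2.51 for CHAC1, -2.49 for S100P, -2.06 for DDIT3, -2.05 for FAM129A, -1.93 for LAMP3 and -1.89 for TRIB3. It was -1.14 for ASNS, -0.99 for TSC22D3, -0.92 for SLC7A11, -0.60 for LCN2, -0.42 for CPEB4, -0.40 for CEMIP, -0.38 for GATA2, -0.35 for DHRS3, -0.25 for NQO1 and -0.23 for BAMBI. LAMP3 and CEMIP were below 0.05 RPKM in every siGATA2 library, where a small response could not be read. They started as low in siControl cells, where the means went from 0.0187 to 0.383 RPKM for LAMP3 and from 0.0243 to 0.0677 RPKM for CEMIP. The rises of siControl cells could thus be read from such levels.

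Among genes with a weaker fall, the value was 2.36 for MCM10, 2.34 for FAM111B, 2.05 for MCM4, 2.05 for EXO1, 2.02 for CCNE2, 1.32 for MYBL2, 1.18 for CDK1, 0.88 for NUSAP1, 0.79 for BIRC5, 0.78 for AURKB and 0.31 for PLK1, all genes of replication, mitosis or their control apart from FAM111B. For androgen-induced genes it was 1.10 for KLK3, 0.69 for C1orf116 and 0.43 for TMPRSS2. It was 1.07 for DSEL and 0.26 for SOX4.

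C5orf66 (0.36) and PYGL (0.37) rose more in siGATA2 cells. The signs were opposite for MED1 (0.25), VEGFA (-1.33) and HIST1H2BN (-0.59). The value was -0.27 for NR3C1, whose difference in siGATA2 cells was close to 0. Its levels were below 0.05 RPKM in both backgrounds, too low for a small change to be read. Of these 4, HIST1H2BN was the 1 gene whose change within siGATA2 cells passed the threshold.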

How the results depend on the processing

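All 84 called genes kept their sign under every alternative in which they were tested, which tests little because their siGATA2 groups did not overlap. The number of calls varied, and the cause was not tested. In some alternatives fewer genes or libraries entered the fit. At the main setting 45 genes rose and 39 fell. A pseudocount of 1 RPKM gave 44 and 48, 0.01 RPKM gave 47 and 44, no filter gave 42 and 40, centred libraries gave 51 and 31 and no variance trend gave 36 and 37. A mean of at least 1 RPKM gave 55 and 59, and the 6 siGATA2 libraries alone, with fewer residual degrees of freedom, gave 18 and 8. Past 2-fold the counts were 4 higher and 9 lower with 0.01 RPKM, 0 lower with 1 RPKM, 1 higher and 0 lower with the mean of at least 1 RPKM, and 2 and 2 in the 6 libraries alone. Leaving out 1 library at a time gave 15 to 43 higher and 12 to 50 lower, with 0 to 2 and 0 to 1 past 2-fold.

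With the replicate number as a block, 14 rose and 15 fell (0 lower past 2-fold). All 29 were among the 84. The correlations do not settle whether the numbers pair the libraries. Same-numbered vehicle and enzalutamide libraries of siGATA2 cells correlated at -0.204, 0.203 and 0.28, and not every library correlated best with its own number. Between the enzalutamide libraries of siControl and siGATA2 cells same numbers correlated at 0.113, 0.241 and 0.148, each the highest for its number.

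Among the lists, the mean of at least 1 RPKM gave 3 amino acid enzymes, 2 transporters, 1 lineage factor and 3 study-named genes higher, and 2 androgen-repressed, 2 replication, 1 hypoxia and 2 study-named genes lower. A pseudocount of 1 RPKM gave 1 synthetase and 1 androgen-induced gene higher. Centred libraries gave 1 transporter, 1 synthetase and 1 androgen-induced gene higher and 3 mitosis genes lower. No variance trend gave 1 androgen-repressed gene higher, 3 mitosis genes lower and 0 NRF2 targets higher. The block gave 2 mitosis genes lower and 0 NRF2 targets higher, and without a filter 0 NRF2 targets were higher. The 6 siGATA2 libraries alone gave 0 NRF2 targets higher and 0 androgen-induced, 0 lineage, 0 mitosis and 0 study-named genes lower. Leaving out 1 library gave 1 to 2 amino acid enzymes, 0 to 1 transporters, 0 to 1 NRF2 targets, 0 to 1 androgen-induced and 1 to 2 study-named genes higher, and 0 to 2 replication, 1 to 7 mitosis, 0 to 5 hypoxia, 0 to 1 MYC and ribosome, and 1 to 2 study-named genes lower. The difference between backgrounds for COLCA1 reversed to -0.27 with 1 RPKM (adjusted p = 0.0111).

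Of the 27 named genes called, 10 (the 6 libraries alone) to 26 remained called under the alternatives, and 15 to 24 when a library was left out. Depth limited MIR8085, LINC02308, LINC00626 and LOC101929516, whose calls rested on 1 to 4 of the smallest steps per library.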
